A study of Mus musculus with 5 samples.

Results

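Control mouse liver at 12 months of age (12M) was set against control mouse liver at 2 months (2M), with 1 RNA library for each age. Both come from C57BL/6 mice whose Srsf2 alleles carry loxP sites (Srsf2 f/f) and which served as the wild type of a study of Srsf2, a splicing factor gene. That study deleted the gene in hepatocytes with Alb-Cre, which is driven by the albumin promoter. Such mutant mice gave 3 further libraries: a 2M liver (2M HKO), tumor tissue at 12M, and 12M liver tissue outside tumors, called non-tumor. The authors report that the protein of the deleted gene, missing at younger ages, was found again in mutant livers of the ages sequenced. Both controls are labelled wild type. A code in the deposited table gives the older sample 1 month more than its title and age label do, and the labelled age was used. The study used its controls as partners of the mutant livers of the same age, and the comparison of both ages was not among the pairs it names. Feeding state, time of day and housing at collection are not given in the sources used here. The codes hold 1 animal number each, and whether RNA was pooled is not given in the sources used here. With 1 library for each age, age cannot be told apart from the animal, the day or the library, so no p-value was computed, and the intervals below are 95% exact binomial intervals that cover counting error only.

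The members are all gene records with more than 1 FPKM (fragments per kilobase of gene, scaled to the mapped fragments of the library) in either control library, which left 10375 of 46095 records. The main measure was the log2 ratio of the 12M to the 2M level after adding 0.1 FPKM to both. Genes with a log2 ratio above 1 were called higher and those below -1 lower, which is a 2-fold change. Of the members, 9574 exceeded 1 FPKM in both libraries, 426 in the 12M library alone and 375 in the 2M library alone. Those that passed through 1 library alone lean to that side by the rule, and 180 of the 426 were called higher and 115 of the 375 lower. At the edge of the minimum, Chek2 was kept with 0.868 and 1.001 FPKM, and Fam206a, at 0.999 and 0.718, was not.

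In liver, hepatocytes take up, burn, store and export fatty acids, and the nuclear receptor PPAR-alpha drives the genes of fatty acid oxidation. Stored triglyceride sits in droplets coated by proteins of the perilipin and Cide families, which are known from fat cells as well as from fatty liver. Pulses of growth hormone, the transcription factors Stat5a and Stat5b, the daily clock and the position of a hepatocyte between portal and central vein set the level of many of its genes.

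Between both ages, 369 genes (3.56% of members) were higher at 12M and 288 (2.78%) were lower, so 6.33% were called in either direction. These shares are the background against which each gene list below is read. With a minimum of 5 FPKM in either library, 146 of 6114 genes (2.39%) were higher and 128 (2.09%) were lower. The median log2 ratio of all members was -0.01, and 77.1% of them lay within 0.5 of 0. The calls thinned out with the level: 14.2% of 2024 members with a mean of up to 2 FPKM were called, and 3.62% of 663 members above 100 FPKM. Near the thresholds, 29 genes lay between 1 and 1.05 and 33 between 0.95 and 1, while on the other side 29 lay between -1.05 and -1 and 22 between -1 and -0.95. Of the called genes, 122 of 657 belong to 41 gene lists of known pathways, cell types and tissues, as do 816 of all 10375 members.

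**Figure D1:**
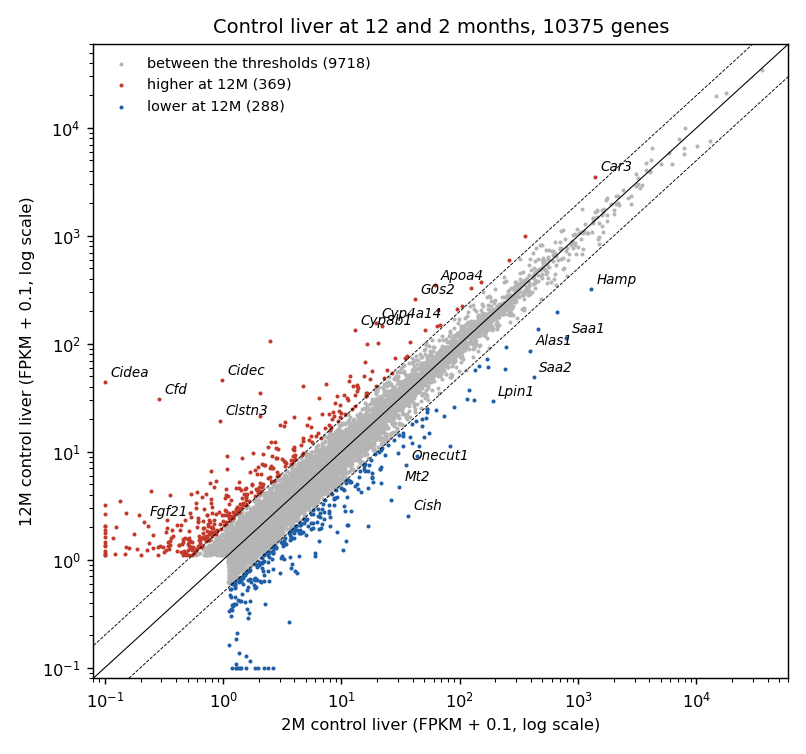
Level of each of the 10375 members in the 2M control liver (x axis) and the 12M control liver (y axis), in FPKM + 0.1 on log axes, with 1 library for each age. Solid line, equal levels; dashed lines, a 2-fold difference. The 369 red genes were higher and the 288 blue genes lower at 12M, and Cidea, Cfd and Cidec lie farthest from the line.

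The libraries were of like depth, at 35142288 fragments for 12M and 34969834 for 2M, worked back from the FPKM values and gene lengths. Of 24 hepatocyte genes, 21 lay between the thresholds, and Alb, the albumin gene, stood at 34306 and 35555 FPKM. Xist, the transcript of the inactive X chromosome, was listed at 0 in both, and the Y-linked genes Ddx3y (5.09 and 4.35 FPKM), Eif2s3y, Kdm5d and Uty were present in both. Srsf2 was at 15.7 FPKM at 12M and 14.6 at 2M, a log2 ratio of 0.10, and at 22.7 in the 2M HKO liver. The 2M HKO library is thus not read as one free of Srsf2 transcripts. Rescaling by the median ratio of 9099 genes expressed in every library shifts the ratios by 0.04. Whether fewer cells of a type or less RNA for each cell lies behind a lower level cannot be told apart in these bulk samples.

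Among the highest ratios were those of lipid droplet genes. Cidea and Cidec encode proteins that fuse droplets into larger ones, and Clstn3 is the locus of a droplet protein of fat cells, whose isoform the gene record does not separate. Cidea had 1805 fragments at 12M (44.1 FPKM) and none at 2M. Against a floor of 3 fragments at 2M it was at least 599-fold higher, and the 95% interval on its fragments began at 486-fold. Cidec, on chromosome 6, 113424634 to 113435760 (GRCm38), stood at 46.0 FPKM at 12M and 0.882 at 2M. That is 52.1-fold (95% interval 40.0 to 69.2), from 2934 and 56 fragments. Clstn3, at 19.4 FPKM at 12M and 0.835 at 2M, was higher 23.2-fold (95% interval 19.3 to 28.2). These droplet genes were close to silent in the younger liver and stood among the moderately expressed genes of the older one.

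Of 29 measured genes of lipid droplets and triglycerides, 7 were higher and 1 was lower, with a median of 0.10, against 3.56% and 2.78% of all members. Genes grouped here as those of droplets, with G0s2 and Fitm1 counted among them, accounted for 5 of the 7. G0s2, an inhibitor of the triglyceride lipase Pnpla2, rose from 41.4 to 258 FPKM, 6.23-fold (95% interval 5.86 to 6.62). Fitm1, which takes part in droplet formation, went from 20.3 to 101 FPKM, and Plin2, the main droplet coat protein of hepatocytes, from 123 to 327. Other coat genes lay between the thresholds, with Plin5 at 23.3 FPKM at 12M and 21.1 at 2M and Cideb, the Cide gene that normal hepatocytes express, at 210.2 and 196. Among genes of uptake and synthesis, the fatty acid transporter Cd36 was higher at 20.5 against 5.21 FPKM, and Mogat1, a monoacylglycerol acyltransferase, at 1.61 against 0.157, which is 72 against 7 fragments. Dgat2, which makes most hepatic triglyceride, lay at 280.5 and 289.6 FPKM. The 7 lipases ranged between the thresholds, Pnpla2 at -0.24 and Lipe at 0.60.

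Lpin1 was the exception of this list. It encodes a phosphatidate phosphatase that also acts as a coactivator in the nucleus, and it fell from 189 to 29.5 FPKM, 6.43-fold (95% interval 6.25 to 6.61) lower. The 2M control had the highest Lpin1 level of the 5 libraries, with 18.1 FPKM in the 2M HKO liver, 38.5 in non-tumor tissue and 7.64 in the tumor.

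Several of these genes are better known from fat tissue, so fat cell genes were gathered in a list after the values were seen, which makes their direction no independent evidence. Cfd, the secreted complement factor D (adipsin), was at 30.5 FPKM at 12M and 0.185 at 2M, from 993 and 6 fragments. Pparg, the receptor that drives fat cell genes, was at 10.9 FPKM at 12M and 2.31 at 2M, a log2 ratio of 2.18, and the noncoding gene Lncbate1 at 3.88 and 0.256. With Cidea, Cidec and Clstn3, 6 of 8 measured fat cell genes were higher. The defining markers Adipoq, Lep and Plin1 were listed at 0 in both control libraries, Retn had 10 fragments against 0, and Fabp4 stood at 14.5 and 14.4 FPKM. The summed level of the list was 171 FPKM at 12M and 19.8 at 2M. Cidea, Cidec, Cfd and Clstn3 made up most of it at 12M, and Fabp4 most of it at 2M. The part of fat tissue in these levels was not tested. The record 8430408G22Rik (Depp1, also known as Fseg), singled out after its values were seen, had a ratio of the same order, at 105 FPKM at 12M and 2.37 at 2M, 44.5-fold (95% interval 36.8 to 54.3).

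**Figure D2:**
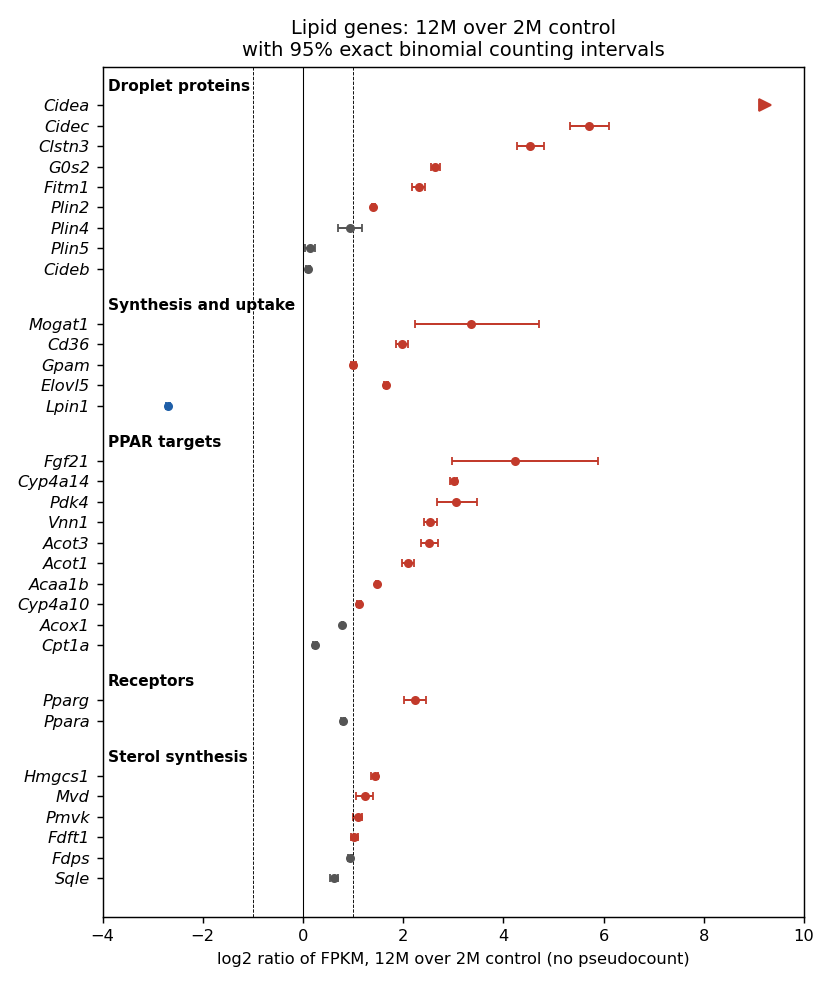
Log2 ratio of FPKM without a pseudocount, 12M over 2M control, for lipid genes grouped by role. Points, ratio of 1 library to 1 library; bars, 95% exact binomial counting intervals; arrowhead, Cidea against the floor of 3 fragments, as it had 0 at 2M. Dashed lines mark a 2-fold difference. Droplet and PPAR target genes reach far to the right while Lpin1 lies alone on the left.

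Of 28 measured targets of PPAR-alpha and genes of fatty acid oxidation, 10 were higher and 1 was lower. The median was 0.65, beside -0.01 for all members, and 27 of the 28 ratios were above 0. Cyp4a14 and Cyp4a10, fatty acid omega hydroxylases, were at 156 against 19.4 and 226 against 104 FPKM. Of Cyp4a14 that is 8.04-fold (95% interval 7.64 to 8.46). The 4 acyl-CoA thioesterase genes Acot1, Acot2, Acot3 and Acot4 were all higher, with log2 ratios of 2.09, 1.93, 2.48 and 1.11. They lie close together and are alike in sequence, as are the Cyp4a genes, so fragments may have been divided among them uncertainly. Acaa1b, a peroxisomal thiolase, rose from 359 to 999 FPKM, and Vnn1, a pantetheinase, from 7.26 to 42.2.

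Fgf21 and Pdk4 were higher from low levels. Fgf21, a hormone that hepatocytes secrete under PPAR-alpha and amino acid stress, had 95 fragments at 12M and 5 at 2M, 2.14 and 0.113 FPKM. Pdk4, the kinase that holds back pyruvate dehydrogenase, was at 4.15 and 0.497 FPKM. Ppara itself was at 54.3 FPKM at 12M and 31.3 at 2M, a log2 ratio of 0.79, below the threshold. So was Cpt1a, which lets fatty acids into mitochondria, at 0.24. The 1 lower record, Acadvl, lies on a scaffold outside the assembled chromosomes and is taken up with such records at the end.

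Of 20 measured genes of fatty acid synthesis, 3 were higher, none was lower, and the median was 0.23. The elongases Elovl3 and Elovl5 were at 67.7 against 15.7 and 206 against 65.6 FPKM, and Gpam, the first enzyme of glycerolipid synthesis, lay at the threshold with 53.9 against 26.9, and it missed it with a pseudocount of 1. The core enzymes of the pathway lay between the thresholds, with Fasn, the fatty acid synthase gene, at 0.31, Acaca, acetyl-CoA carboxylase, at -0.53, and Scd1, the desaturase, at 0.32. Srebf1, the factor that drives these genes, was at 0.13.

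Most genes of cholesterol synthesis had ratios above 0 but under 2-fold. Of 26 measured genes, 4 were higher and none was lower, the median was 0.62, and 23 ratios were above 0. Hmgcs1, an early enzyme of the pathway, rose from 17.4 to 47.0 FPKM, 2.70-fold (95% interval 2.57 to 2.83). Mvd and Pmvk, enzymes of the mevalonate steps, were at 14.0 against 5.98 and 73.4 against 34.4 FPKM, and Fdft1, squalene synthase, at 32.8 against 16.1. Sqle, squalene epoxidase, had a log2 ratio of 0.62 and the factor Srebf2 of 0.64. At 12M non-tumor tissue had more Hmgcs1 than either control, at 197 FPKM.

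The promoter window of Hmgcs1 is shown because it is the only called gene of this list with a window that holds the sterol element core, TCACNCCAC, on either strand, out of 3 with a window (Hmgcs1, Mvd and Pmvk). That core was found in 1 of 18 measured genes of the list with a window, and in 1.44% of all 27025 genes with a window. The RefSeq window (GRCm38.p6, chr13:119690101-119690400, plus strand) runs from 250 bases before to 50 after the annotated start, and the capitals mark the core at base 114.
Hmgcs1: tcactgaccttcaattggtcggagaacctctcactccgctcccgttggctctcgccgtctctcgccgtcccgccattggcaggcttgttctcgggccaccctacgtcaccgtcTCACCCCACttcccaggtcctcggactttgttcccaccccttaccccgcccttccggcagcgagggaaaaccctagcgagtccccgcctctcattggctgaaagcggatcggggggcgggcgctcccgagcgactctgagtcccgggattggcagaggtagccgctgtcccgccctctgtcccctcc

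Bile acid genes were called in both directions. Cyp8b1, the sterol 12-alpha-hydroxylase that makes cholic acid, was among the largest differences, at 133 FPKM at 12M and 12.8 at 2M. This was 10.4-fold (95% interval 9.73 to 11.2) from 9142 and 872 fragments. Nr0b2 (Shp), a repressor of bile acid synthesis, was higher at 27.0 against 9.70 FPKM, and Cyp7a1, the rate-limiting enzyme, lay at 11.1 and 13.02. Lower were Cyp39a1, an oxysterol hydroxylase (2.71 against 10.6 FPKM), Slc51b, a subunit of the basolateral exporter (10 against 30 fragments), and Abcg5, which exports sterols into bile (19.4 against 42.4). In all, 2 of 29 measured members were higher, 3 were lower and the median was 0.07. Csad, which makes the taurine with which bile acids are conjugated, rose from 21.8 to 147 FPKM, 6.72-fold (95% interval 6.45 to 7.01).

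The feedback inhibitors of growth hormone signalling were lower at 12M, and Cish was among the 10 lowest ratios outside predicted genes. Cish, a Stat5-induced inhibitor of cytokine receptors on chromosome 9, 107296659 to 107302784 (GRCm38), fell from 36.1 to 2.47 FPKM, which is 14.6-fold (95% interval 12.9 to 16.6) lower, from 3900 and 268 fragments. Socs2, of the same family, fell from 7.87 to 1.95 FPKM. The receptor and the products of the axis lay between the thresholds, with Ghr at 95.6 and 93.7 FPKM, Igf1 at 59.0 and 69.9, and Igfals at 67.8 and 78.4. Igfbp1, a binding protein that insulin represses, was higher at 12.1 against 2.62 FPKM, and Stat5a at 2.59 against 1.15. Of 17 measured genes of the axis, 2 were higher and 2 were lower. The low Cish level was shared by the libraries of the mutant mice, at 6.69 FPKM in the 2M HKO liver, 7.52 in non-tumor tissue and 3.43 in the tumor, so the 2M control was the highest of the 5.

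The Cish promoter is shown for its gamma-activated sites, TTCNNNGAA, the letters to which Stat proteins bind. The RefSeq window (GRCm38.p6, chr9:107296409-107296708, plus strand) holds 2 of them, in capitals, which begin at bases 251 and 262 and thus lie at the annotated start. Of the called genes of the axis, 1 of 3 with a window held this motif, as did 4 of 16 measured ones and 9.55% of all 27025 genes with a window. Of the called male-biased genes with a window, none of 2 did.
Cish: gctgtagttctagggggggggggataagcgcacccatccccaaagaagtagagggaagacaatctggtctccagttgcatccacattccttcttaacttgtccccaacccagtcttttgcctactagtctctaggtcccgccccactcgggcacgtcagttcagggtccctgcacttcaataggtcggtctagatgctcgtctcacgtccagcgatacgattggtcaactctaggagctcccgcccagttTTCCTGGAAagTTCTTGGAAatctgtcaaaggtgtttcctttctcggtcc

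Genes with a sex bias in mouse liver, many of which depend on the pattern of growth hormone pulses, were called in both directions. Of 27 measured male-biased genes, 1 was higher and 2 were lower, with a median of -0.25 and 19 ratios below 0. Selenbp2, a selenium-binding protein, fell from 658 to 197 FPKM, 3.34-fold (95% interval 3.27 to 3.41) lower, and Ugt2b38 from 52.4 to 25.1, while Elovl3 was higher. The 8 major urinary protein genes of the list lay between the thresholds, from -0.89 for Mup3 to 0.26 for Mup17, while Mup19, which is not in it, was higher at 11.02 against 3.84 FPKM. These are near-identical copies among which fragments cannot be assigned with certainty. Of 32 female-biased genes only 12 were measured, of which 2 were higher and 4 were lower, with a median of -0.81. Cyp2b10 was nearly absent at 12M, with 1 fragment against 104. Fmo2 and Fabp5 were lower at -1.32 and -1.11, and Acot3 and Cyp2a4 were higher at 2.48 and 1.81.

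**Figure D3:**
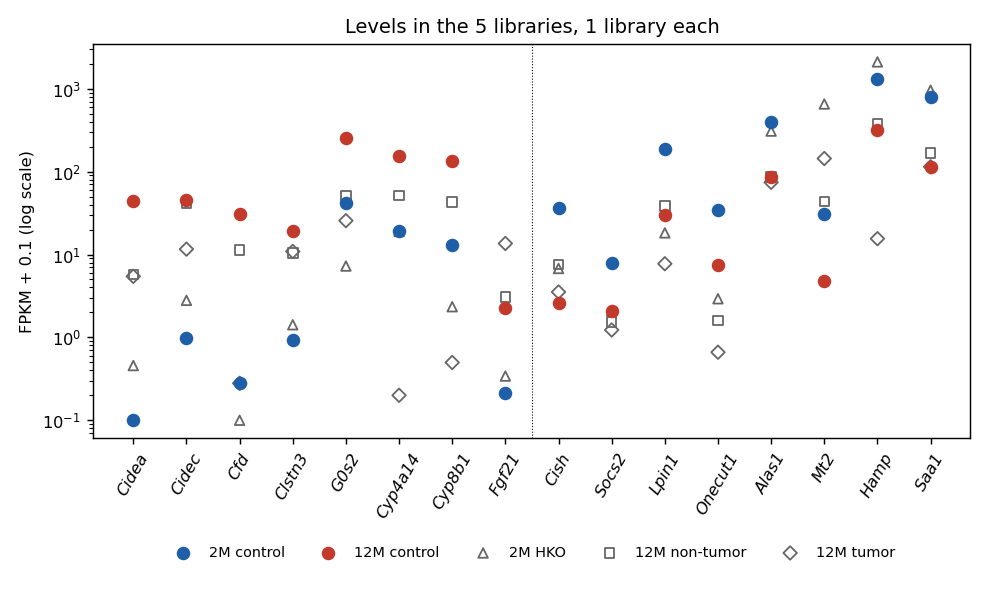
Level of 16 genes in each of the 5 libraries, in FPKM + 0.1 on a log axis, with 1 library for each condition. Filled circles, control livers; open symbols, libraries of mutant mice. To the left of the dotted line are genes higher at 12M and to the right genes lower at 12M. For Cish, Socs2, Lpin1 and Onecut1 the 2M control lies above the 4 other libraries.

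The genes of hepatocytes near the central vein and of those near the portal vein differed in direction. Of 18 measured pericentral genes, 4 were higher, none was lower, 16 ratios were above 0 and the median was 0.57. Of 18 periportal genes, 1 was higher, 3 were lower, 16 ratios were below 0 and the median was -0.34, beside -0.01 for all members. Most single differences were under 2-fold. Tbx3, Sp5, Axin2 and Nkd1 are targets of the Wnt signal that comes from the central vein, and of them Tbx3 was higher at 6.93 against 2.38 FPKM and Sp5 at 2.33 against 1.01, while Axin2 and Nkd1 had log2 ratios of 0.54 and 0.80. Glul, glutamine synthetase of the innermost pericentral cells, was at 373 FPKM at 12M and 238 at 2M, and Cyp2e1 at 6579 and 4225. Aldh3a2, which oxidises fatty aldehydes, was higher at 135 against 50.4 FPKM. Oat, ornithine aminotransferase, rose from 262 to 600.0 FPKM, 2.29-fold (95% interval 2.25 to 2.33). Cyp1a2 and Cyp7a1, also pericentral, were the 2 with ratios below 0, at -0.59 and -0.23.

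On the periportal side, Sds, serine dehydratase, fell from 246 to 94.0 FPKM, and Etnppl and Sult5a1 were lower at -1.08 and -1.67. The urea cycle genes of this zone had smaller differences, with Cps1 at -0.36, Ass1 at -0.36 and Arg1 at -0.32. Apoa4, an apolipoprotein counted here among the periportal genes, was the 1 that was higher, at 350.1 FPKM at 12M and 61.8 at 2M. Its level was higher still in the tumor, at 2289.7 FPKM. The endothelial genes Wnt2, which encodes a Wnt ligand, and Rspo3 were at 1.21 against 0.789 and 1.98 against 1.396 FPKM, both between the thresholds.

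**Figure D4:**
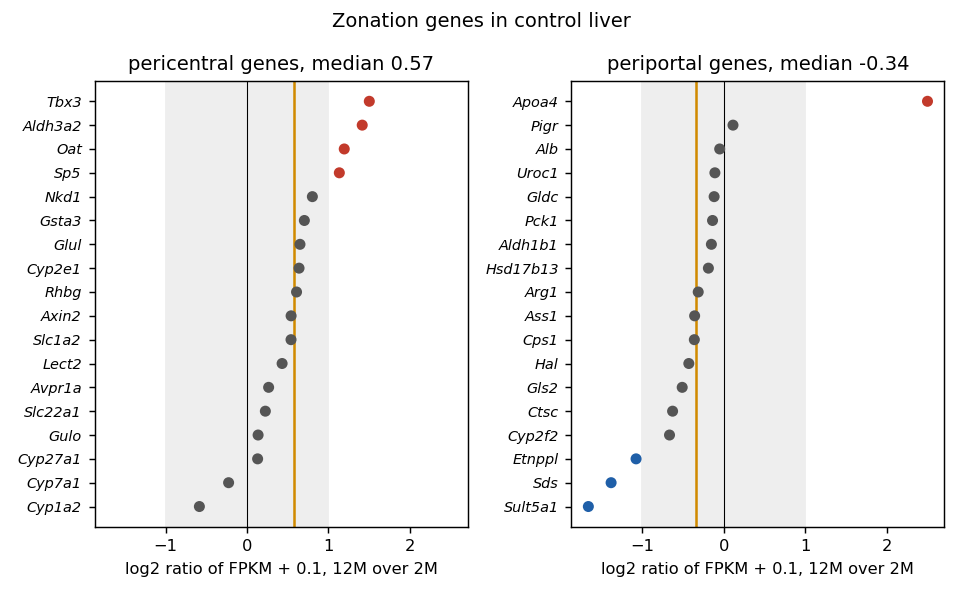
Log2 ratio of FPKM + 0.1, 12M over 2M control, for 18 pericentral genes (left) and 18 periportal genes (right). Points, single genes, in red where higher and in blue where lower; orange line, median of the genes shown; grey band, less than a 2-fold difference. Most pericentral genes lie to the right of 0 and most periportal genes to the left.

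Transcription factors of hepatocytes were lower in 3 cases. Onecut1 (Hnf6), on chromosome 9, 74861921 to 74889648 (GRCm38), fell from 34.8 to 7.38 FPKM, 4.72-fold (95% interval 4.27 to 5.22) lower. The forkhead genes Foxa1 and Foxa3 fell from 11.1 to 3.69 and from 62.4 to 24.3 FPKM, and Foxa2 lay at -0.85. Hnf4a and Cebpa did not pass the threshold, at -0.24 and 0.14. Neither did any of the 13 plasma protein genes of the list.

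The serum amyloid proteins of the acute phase response were lower at 12M. Saa1 and Saa2 fell from 794 to 112 and from 422 to 49.1 FPKM, 7.06-fold and 8.59-fold lower. They are near-identical neighbours, so their split is uncertain. Il1r1, the interleukin 1 receptor, fell from 13.8 to 4.44 FPKM, and Socs3, a target of interleukin 6, from 4.35 to 1.99. Of 28 measured members, 4 were lower, none was higher and the median was -0.24. Crp, Hp and Cp, other plasma proteins of the response, were at -0.08, 0.17 and -0.02.

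Hamp, which encodes the iron hormone hepcidin on chromosome 7, 30942368 to 30944017 (GRCm38), had the largest fall in FPKM of all called genes. It stood at 322 FPKM at 12M and 1295 at 2M, 4.03-fold (95% interval 3.90 to 4.16) lower. Id1 and Smad7, which like Hamp are induced by bone morphogenetic proteins, were lower as well, at -1.04 and -1.08, but Smad6, of the same kind, was higher at 1.24. Hfe2 (hemojuvelin), the coreceptor of that signal, was higher at 36.4 against 13.4 FPKM. The ligand gene Bmp6 and the receptor Tfr2 were at -0.08 and 0.04.

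The list of glucocorticoid targets and immediate early genes held the most lower genes, 10 of 24 measured, with 3 higher and a median of -0.48. Its 7 glucocorticoid targets had a median of -1.35 and 4 of them were lower, with Fkbp5, a chaperone of the receptor, at 2.62 FPKM at 12M and 7.70 at 2M and Zbtb16 at 2.68 and 7.01. Tsc22d3 (Gilz) and Sgk1, targets of the same receptor, were at 0.10 and 0.49. Gadd45g, a stress gene, fell from 16.6 to 1.95 FPKM, Myc from 3.73 to 0.807 and Dusp1, a phosphatase of MAP kinases, from 29.9 to 9.58. Egr1, Nr4a1 and Gadd45b were higher, all at low levels, with 2.58, 1.004 and 1.24 FPKM at 12M.

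Metallothionein genes, whose products bind zinc and copper, fell together. Mt1 went from 43.2 to 9.10 FPKM and Mt2 from 30.4 to 4.66, 4.74-fold and 6.53-fold lower. The 2M HKO liver had 638 and 655 FPKM, the highest of the 5 libraries. These neighbours are shown for their metal response elements, TGCACNC or TGCGCNC, which were searched on both strands after the values were seen. The elements were found in 14.2% and 17.0% of 27025 genes with a window. The RefSeq windows (GRCm38.p6, chr8:94178839-94179138, plus strand, and chr8:94172368-94172667, plus strand) hold 3 and 4, in capitals.
Mt1: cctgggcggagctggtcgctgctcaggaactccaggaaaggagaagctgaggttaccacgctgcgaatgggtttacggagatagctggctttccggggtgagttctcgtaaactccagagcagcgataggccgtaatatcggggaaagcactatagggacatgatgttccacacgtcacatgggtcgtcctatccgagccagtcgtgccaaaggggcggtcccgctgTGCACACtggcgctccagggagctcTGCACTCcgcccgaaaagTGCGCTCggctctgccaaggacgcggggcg
Mt2: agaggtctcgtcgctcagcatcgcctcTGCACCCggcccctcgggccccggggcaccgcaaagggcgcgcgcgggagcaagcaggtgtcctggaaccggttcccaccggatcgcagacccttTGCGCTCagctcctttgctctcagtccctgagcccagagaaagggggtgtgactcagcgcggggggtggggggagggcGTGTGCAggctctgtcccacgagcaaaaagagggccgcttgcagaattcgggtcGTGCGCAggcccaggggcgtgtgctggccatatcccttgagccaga

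A further list, of feedback genes of the Erk kinase pathway together with a receptor and targets, was drawn up after the values were seen. Of its 12 measured genes, 5 were lower and 1 was higher, which is a description of genes picked with these values known. The higher 1 was the target Egr1, and the lower ones include the target Myc and Dusp1, all given above in another list. Phlda1 fell from 82.4 to 11.1 FPKM, 7.41-fold (95% interval 6.87 to 8.001) lower, and Dusp4 from 3.63 to 0.739. Errfi1, an inhibitor of the EGF receptor, was at 1.39 and 10.9 FPKM, though its record lies on a scaffold outside the chromosomes. Dusp6 and Spry4, feedback genes of the same pathway, lay at -0.10 and -0.53, and Spry1 and Etv5 at 0.47 and 0.20.

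Clock genes were lower in 5 of 25 measured cases and higher in none, with a median of -0.26 and 20 ratios below 0. Per1 and Ciart, repressors of the clock, fell from 7.68 to 3.12 and from 10.4 to 4.32 FPKM. The outputs Alas1, the first enzyme of haem synthesis, Gys2, liver glycogen synthase, and Noct, a phosphatase, were lower at -2.18, -1.21 and -1.11. Of Alas1 this was 86.2 FPKM at 12M against 392 at 2M. Genes with strong daily swings lay between the thresholds, with Dbp at 82.7 and 98.9 FPKM, Nr1d1 at 37.5 and 31.9, and Per2 at 4.61 and 7.69. Arntl (Bmal1), which cycles in antiphase to these, was below 1 FPKM in both, at 0.613 and 0.169.

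Per1 and Ciart are the called clock genes whose windows hold an E-box, CACGTG, the letters bound by Clock and Arntl, and their windows are shown for that reason. It was found in 2 of 4 called members with a window, in 5 of 20 measured members and in 8.09% of all 27025 genes with a window. The D-box TTATGNAA was found in 2 of the 4, 3 of the 20 and 3.99% of all genes, and AGGTCA, the letters of Ror receptors, in 1 of the 4, 5 of the 20 and 18.1%. The RefSeq windows (GRCm38.p6) are chr11:69098699-69098998, plus strand, with 1 E-box in capitals, and chr3:95882179-95882478, minus strand, with 3. Per1 has a further window that holds none.
Per1: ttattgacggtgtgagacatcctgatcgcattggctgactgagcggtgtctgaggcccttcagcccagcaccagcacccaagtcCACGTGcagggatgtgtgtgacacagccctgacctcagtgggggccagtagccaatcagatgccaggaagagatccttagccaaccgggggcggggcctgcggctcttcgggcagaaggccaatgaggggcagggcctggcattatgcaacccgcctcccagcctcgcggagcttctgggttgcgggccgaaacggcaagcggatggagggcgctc
Ciart: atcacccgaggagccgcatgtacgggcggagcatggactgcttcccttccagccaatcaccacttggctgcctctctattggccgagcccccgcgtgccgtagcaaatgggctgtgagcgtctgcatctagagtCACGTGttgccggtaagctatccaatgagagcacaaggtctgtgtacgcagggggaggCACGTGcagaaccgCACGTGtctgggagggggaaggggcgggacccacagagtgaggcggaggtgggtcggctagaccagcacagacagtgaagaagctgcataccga

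**Figure D5:**
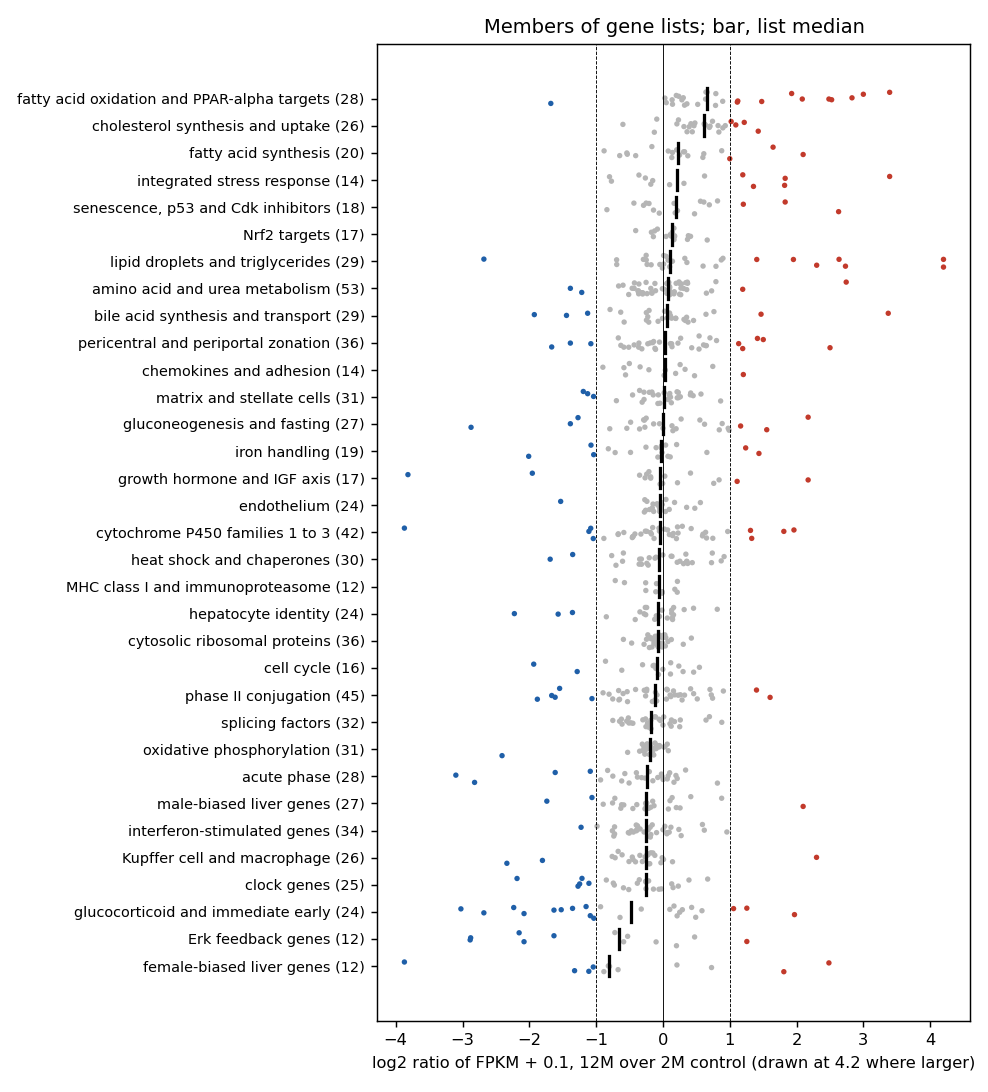
Log2 ratio of FPKM + 0.1, 12M over 2M control, for the members of 33 gene lists with at least 12 measured genes, whose number is in brackets. Points, single genes, red where higher, blue where lower and grey between the thresholds; black bar, list median; dashed lines, a 2-fold difference. The ratios of Cidea and Cidec are drawn at the right edge. Fatty acid oxidation and cholesterol synthesis have the highest medians, and female-biased, Erk feedback and glucocorticoid genes the lowest.

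Genes of fasting and glucose output were split, with 3 of 27 measured higher, 3 lower and a median of 0.00. G6pc, glucose-6-phosphatase, was higher at 211 against 94.0 FPKM, Pck1 lay at 860.0 and 947, and Pfkfb3, which makes an activator of glycolysis, fell from 26.1 to 3.48. Angptl8, which feeding induces, was lower at 61.2 against 172 FPKM. Eif4ebp3, a repressor of translation, was lower too, at 29.8 against 132.

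Among stress responses, 5 of 14 measured genes of the integrated stress response were higher and none was lower, with a median of 0.21. Asns, asparagine synthetase, and Gdf15, a stress hormone, rose from 2.49 to 9.07 and from 0.945 to 3.61 FPKM, and Atf5 from 63.8 to 146. Nupr1, a stress-induced nuclear protein, stood at 1.91 and 0.685. Other genes of the response did not pass the threshold, with Atf4 at -0.36, Ddit3 (Chop) at -0.77 and Trib3 at 0.62. Cytosolic heat shock genes lay below 0 in 12 of 14 cases, and 2 of them, Dnajb1 and Hsph1, were lower at -1.69 and -1.35. Chaperones of the endoplasmic reticulum lay above 0 in 12 of 16 cases with none past the threshold. Derl3, of the degradation machinery of that compartment, was higher at 6.50 against 0.683 FPKM.

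Bbc3 (Puma), a p53 target that promotes cell death, rose from 0.771 to 5.29 FPKM, 6.86-fold (95% interval 5.20 to 9.20). It was 1 of 3 higher genes among 18 measured in the list of senescence, p53 and Cdk inhibitors, next to Gdf15 and Cxcl1. The Cdk inhibitor genes Cdkn2a and Cdkn1a were below 1 FPKM in both, at 0.306 and 0 and at 0.234 and 0.898. None of the mitotic genes was measured, Mki67 being at 0.0367 and 0.116 FPKM. Of 16 genes of G1 and S phase, Ccne1 and Rrm2 were lower at -1.93 and -1.28. H19, the imprinted noncoding RNA of fetal liver, fell from 4.34 to 1.65 FPKM, and the fetal genes Afp, Igf2 and Gpc3 were below 1 FPKM in both.

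Genes of drug metabolism were called in both directions. Of 42 measured P450 genes and regulators of families 1 to 3, 4 were higher and 4 were lower, with a median of -0.05. Cyp2c37 and Cyp2c38 were higher at 375 against 151 and 21.4 against 8.46 FPKM, in a family of close copies. In the same family Cyp2c69 was lower at 2.07 against 4.38 FPKM, and Cyp2c29 and Cyp2c70 lay at log2 ratios of 0.59 and -0.45. Nr1i3 (Car), the receptor that induces Cyp2b10, was at 49.2 FPKM at 12M and 25.1 at 2M, a log2 ratio of 0.97, under the threshold. Of 45 genes of conjugation, 2 were higher and 5 were lower, among them Gstm3, which fell from 115 to 31.1 FPKM, and Ugt1a9, from 21.03 to 6.80. None of 17 measured Nrf2 targets was called. Car3, a carbonic anhydrase of liver, muscle and fat, had the largest gain in FPKM of all called genes, from 1379 to 3542, 2.57-fold (95% interval 2.55 to 2.59). Got1, the cytosolic aspartate aminotransferase, fell from 169.6 to 73.0. Other large ratios were those of Acnat2, of the acyl-CoA amino acid N-acyltransferases (21.3 against 1.94 FPKM), of Serpinb1a, a protease inhibitor (8.96 against 0.984), of Osbpl3, an oxysterol-binding protein (2.63 against 0.0498), and, in the other direction, of Clec2h, a lectin (1.98 against 11.3), and of Fam107a, an actin-associated protein, with 0 fragments at 12M and 221 at 2M, at least 74.0-fold lower against the floor of 3 fragments, with a 95% interval from 59.7-fold.

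Markers of the other liver cells are given by list, beside 3.56% of all members called higher and 2.78% called lower. Of 26 measured Kupffer cell and macrophage genes, 1 was higher and 2 were lower. All 11 measured Kupffer cell genes had ratios below 0, and 2 of them passed the threshold. Marco, a scavenger receptor, fell from 9.09 to 1.72 FPKM, and Id3 from 89.9 to 25.7, while Clec4f, their most specific lectin, was at 41.3 and 48.5, and Timd4 at 2.54 and 3.50. The summed level of all 26 macrophage genes was 636 FPKM at 12M and 826 at 2M, of which Id3 made up 25.7 and 89.9. Trem2, of lipid-associated macrophages, was higher with 90 against 15 fragments, and Gpnmb, of the same cells, was below 1 FPKM, at 0.172 and 0.

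In the matrix and stellate list 3 of 31 genes were lower, the collagens Col1a2 and Col3a1 and the proteoglycan Lum, at -1.19, -1.13 and -1.04. None of the 11 stellate cell genes was called, with log2 ratios from -0.70 for Acta2 to 0.86 for Pdgfrb and a median of 0.21. Of 24 endothelial genes 1 was lower, Lyve1, at 0.982 against 3.03 FPKM, with Stab2 at -0.16 and Pecam1 at -0.02. None of the 4 measured biliary genes and none of the 12 of MHC class I was called. The biliary keratins Krt19 and Krt7 were below 1 FPKM in both.

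Transcripts of lymphocytes were few. B cell and plasma cell genes were measured in 3 of 26 cases, and Cd79a and Jchain were higher with 54 against 4 and 132 against 20 fragments. Summed over 348 records of immunoglobulin variable segments, the 12M library had 269 fragments and the 2M library 40, a ratio of 6.69 (95% interval 4.79 to 9.58). The constant genes Ighm and Igkc were listed at 0 in all 5 libraries. These include 12M non-tumor tissue and the 2M HKO liver, which had 1185 and 1384 fragments of variable segments. Their 0 in the controls is thus not read as absence of immunoglobulin transcripts. Of 3 measured neutrophil genes, S100a9 and Il1b were higher at 54 against 9 and 131 against 48 fragments. Lcn2, which hepatocytes also make, lay at a log2 ratio of -0.93. Among members of that list below 1 FPKM in both libraries, S100a8 had 4 against 10 fragments and Csf3r 113 against 100. Of 34 interferon-stimulated genes 1 was lower, Usp18, at -1.23, and the median was -0.25.

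The housekeeping lists are given beside the 6.33% of all members that were called, and they do not measure the spread between mice. None of 36 ribosomal protein genes was called, with ratios from -0.59 to 0.43 and a median of -0.08. The same held for 32 splicing factors, with ratios from -0.75 to 0.88 and a median of -0.18. Of 31 genes of oxidative phosphorylation 1 was called, with a median of -0.19, and 27 ratios were below 0. That 1 was Uqcrc1, a scaffold record, at 2.01 FPKM at 12M and 11.1 at 2M, while the other complex III genes Uqcrc2 and Cyc1 were at 141 and 162 and at 205 and 231.

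Some kinds of record were called far more often than others. Of 197 members on scaffolds outside the assembled chromosomes, 14 were higher and 11 lower, which is 12.7%, against 6.21% of 10178 members on chromosomes. These 197 had a median of 359 fragments in the fuller library, against 763 on chromosomes. Among the called ones were Uqcrc1, Acadvl, Errfi1, Gstp2 and Pef1, the last with a log2 ratio of 4.14. Of 53 records shorter than 200 bases, 60.4% were called, with a median of 6 fragments in the fuller library. These include 6 higher and 14 lower small nucleolar RNAs, such as Snord42b with 6 fragments against 0 and Snora31 with 0 against 10. Of the 10 lowest ratios outside predicted genes, 7 belong to small RNAs with at most 10 fragments, namely Snora31, Snora61, Snord95, Mir146, Snord69, Snord14a and Mir7085. Their exclusion is given with the other settings. The part of read mapping in these calls was not tested.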

How the data were processed

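Total liver RNA was sequenced as paired-end libraries, 1 for each condition. Whether RNA was pooled before sequencing is not given in the sources used here. The authors deposited a table of FPKM values for 46095 gene records together with the gene length in bases that was used for them. Their processing notes name Bowtie 0.12.2 and GRCm38, and the counting tool and annotation release are not given in the sources used here. With Python 3.11.15 (pandas 2.3.3, numpy 2.4.6, scipy 1.17.1, matplotlib 3.10.9), the FPKM of each record was multiplied by its length. In each library the products were whole multiples of 1 step, within 0.01 for 98.7% to 98.8% of values, and division by the step gave fragments and the library total (34969834 to 36104176 in the 5 libraries). Between 58.8% and 61.0% of counts from 2 to 21 were even, so that some fragments may have been counted more than once and the binomial intervals may be too narrow. Where a library had 0 fragments, a floor of 3 was used, for each library.

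Genes over 1 FPKM in either control library were kept, and the log2 ratio was taken after adding 0.1 FPKM, which understates the change of low genes. Calls rest on the fold alone, since there are no replicates. Named were the 10 highest and lowest log2 ratios outside predicted genes, the 10 largest FPKM differences in each direction, up to 4 called genes of each list, genes that define a role in a list, Srsf2 and the sex-linked genes. The 10 highest and lowest ratios of coding chromosomal genes over 5 FPKM, 2 of the 43 lists (fat cell genes and Erk feedback genes) and the metal response elements were added after the values were seen. The members, the other 41 lists and the tests were chosen with earlier results of these data known. Promoter windows came from RefSeq (GRCm38.p6), without those on chromosome 18, and motifs were searched as letters on both strands. The alternatives were other pseudocounts, minimums and thresholds, rescaling by the median ratio, conversion to TPM, the fragment intervals and the exclusion of scaffold, short and predicted records. The ratio calculation was tested on simulated data. The 3 libraries of mutant mice were used for levels side by side. Some list members are counted but not reported here by name.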

Additional observations from a re-analysis of the deposited data

How the results depend on the processing

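The counts of genes called depend on the minimum and the pseudocount. Against 369 higher and 288 lower genes, a minimum of 5 FPKM gave 146 and 128, a pseudocount of 1 gave 199 and 148, and a threshold of 1.5-fold gave 939 and 928. A minimum of 0.5 FPKM gave 436 lower genes and conversion to TPM gave 445, with more genes then passing the minimum. Above 5 FPKM, the threshold of 1.5-fold gave 436 and 419 in place of 146 and 128. A count of genes whose fragment interval lay wholly past 2-fold, chosen after seeing the data, gave 227 higher and 159 lower. The other settings kept the counts within 1.5 times. Leaving out scaffold records gave 355 and 277, leaving out records under 200 bases gave 356 and 269 (both chosen after seeing the data), and leaving out predicted genes and pseudogenes gave 297 and 240. Of 119 named genes, 19 no longer passed the threshold at a pseudocount of 1, among them Col1a2, Col3a1, Lum, Smad6, Smad7, Socs3, Stat5a, Usp18, Gpam and Fdft1, and none changed direction. Lum also missed it on rescaling, at -0.9995. The median of the 3 measured neutrophil genes turned from 1.29 to -0.93 at a minimum of 5 FPKM, where 1 gene was left. No paired analysis was possible because each age has 1 library, and for the same reason no replicate could be left out. A difference between both ages could not be set against the spread between mice.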

Other observations

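The 3 libraries of mutant mice took no part in the choice of genes, so the place of both controls among all 5 libraries can be described. Of 369 genes higher at 12M, the 12M control lay above the 3 mutant libraries in 149 cases and the 2M control below them in 201. Of 288 lower genes, the 12M control lay below them in 152 cases and the 2M control above them in 159. Above 5 FPKM, the 2M control was the outermost library in 77 of 146 higher and 84 of 128 lower genes, and the 12M control in 61 and 56. The choice by the ratio of both controls favours outer places for both of them, and the mutant libraries differ in genotype and age, so these counts are given as values with no test.

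Long noncoding RNAs were called more often than coding genes, as a share of those measured. Of 157 long noncoding RNAs over 1 FPKM, 31 were higher and 19 were lower, and the median was 94 fragments in the fuller library, while 290 of 9534 coding genes were higher and 224 lower, from a median of 827.5 fragments. Red cell genes all lay above 0 with none past 2-fold, from 0.19 to 0.70, and all 8 measured output genes of the clock lay below 0, from -2.18 to -0.06.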
